A study of Mus musculus with 4 samples.

Results

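Some entries of a miRNA annotation lie on other small RNAs or have a doubtful claim to be miRNAs, and 10 such mouse names were followed here: mmu-miR-5121, mmu-miR-1291, mmu-miR-3535, mmu-miR-1940, mmu-miR-1983, mmu-miR-5099, mmu-miR-5114, mmu-miR-5126, mmu-miR-6236 and mmu-miR-6240 (the prefix mmu, for mouse, is left off below). They are 10 of the 1900 mature miRNA names in the count table. They were picked because their CPM values (counts scaled to the size of the library) differed strongly between the 2 groups of libraries, so every GFP-AGO2 to Control difference of these 10 names is given as a description and is not tested. The 4 libraries hold small RNA from the olfactory bulb of C57BL/6 mice, sequenced per the labels after RNA immunoprecipitation for Argonaute2 (AGO2). GFP-AGO2 (n = 2, replicates 1 and 3) came from mice injected with LV.PGK.GFP-AGO2, a vector named for AGO2 fused to green fluorescent protein behind the PGK promoter, and Control (n = 2, replicates 1 and 3) came from sham-injected mice. Both groups were taken 8 weeks after injection. The PGK promoter is active in many cell types. The sources used here do not give the antibody or the injection site, nor whether a group's libraries are of separate mice. P-values therefore speak only to how these libraries vary, possibly for technical reasons, and Control may hold RNA of the animal's own AGO2 or only unspecific background.

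As background, AGO2 binds mature miRNAs, which are cut from hairpin precursors by Drosha and Dicer, and pairs with target RNAs through the miRNA's seed, bases 2 to 8. Small nucleolar RNAs (snoRNAs) are another class. They are mostly cut out of introns and guide chemical changes of ribosomal RNA, ribose methylation for the box C/D class and pseudouridine for the H/ACA class. Their relatives in Cajal bodies are called scaRNAs. Transfer RNAs (tRNAs) are made by RNA polymerase III, which stops at a run of T, and the piece after the mature 3′ end, the trailer, is cut off. Pieces of all these RNAs turn up in small RNA libraries, and some are listed as miRNAs.

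The 9 names other than miR-1983 were lower in both GFP-AGO2 libraries than in both Control libraries, and miR-1983, which lies on a tRNA gene, was higher in both. Over all 457 names tested, both GFP-AGO2 libraries were below both Control libraries in 35.2% and above them in 36.8%, and nothing is read from the count of the 10 since they were chosen on this difference. The 4 names on snoRNAs all lie at the 5′ end of the snoRNA. All 10 names carry no -5p or -3p suffix, which miRNA names receive when both arms of a hairpin are catalogued.

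The mature sequences are shown because the features described after them, a box C core and a run of U, can be read in them. RefSeq (GRCm38.p6, the assembly also called mm10) held 8 of the 10, with none for miR-1940 and miR-5099. The capitals mark the seed.
miR-1983: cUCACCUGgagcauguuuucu
miR-5121: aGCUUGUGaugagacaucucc
miR-3535: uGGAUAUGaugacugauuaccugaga
miR-1291: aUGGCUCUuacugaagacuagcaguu
miR-6236: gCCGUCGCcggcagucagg
miR-6240: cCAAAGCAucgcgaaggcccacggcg
miR-5114: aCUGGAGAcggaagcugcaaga
miR-5126: gCGGGCGGggccgggggcgggg
No 2 of these 8 share a seed. MiR-1983 shares its seed with miR-412-3p, miR-5114 with miR-7094b-2-5p and miR-6240 with miR-330-3p, and the other 5 seeds were found in no other mature RefSeq name. The letters UGAUGA, which belong to box C of C/D snoRNAs, stand in miR-5121 and miR-3535. They stand in 10 of the 1595 other names with a sequence (0.627%), or in 9 of the 1456 of these that are 21 to 26 bases long (0.618%). Names were 19 to 27 bases long. The median was 22 bases, as it was for the other names. At least 26 bases were listed for 4 of the 10 (miR-1291, miR-3535, miR-1940 and miR-6240), against 13 of the 1890 other names in the table (0.688%). The same 4 reach 25 and 24 bases, against 47 (2.49%) and 143 (7.57%) of the others, and these lengths were compared after they were seen. Every base of miR-5126 is G or C, which held for none of the other names with a sequence, whose median was 52.2%.

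The host snoRNAs are shown for 3 names, 5′ to 3′ as DNA letters from GENCODE M21, because they show where on the parent RNA the counted stretch lies. The capitals mark the name.
Snord33 (chr7:45126864-45126947, minus strand): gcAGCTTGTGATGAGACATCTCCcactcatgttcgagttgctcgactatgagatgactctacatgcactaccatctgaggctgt
Gm24148 (chr1:86352008-86352087, minus strand): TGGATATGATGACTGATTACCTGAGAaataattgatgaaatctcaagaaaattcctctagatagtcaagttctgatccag
Snora34 (chr15:98519716-98519853, minus strand): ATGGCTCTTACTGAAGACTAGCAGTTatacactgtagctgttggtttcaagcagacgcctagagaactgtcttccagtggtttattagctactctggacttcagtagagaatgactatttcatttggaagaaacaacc
MiR-5121 begins at base 3 of Snord33, and miR-3535 and miR-1291 begin at base 1 of Gm24148 and Snora34. MiR-1940 (chr13:95330599-95330625, plus strand) begins 1 base before Snora47 as GENCODE draws it and overlaps it by 26 bases. RefSeq draws Snora34 and Snora47 shorter at the 5′ end, so that 7 and 15 bases of miR-1291 and miR-1940 lie on them. RefSeq lists Gm24148 as a miRNA gene (chr1:86351981-86352127) and has no snoRNA at miR-3535, whose place on a snoRNA rests on GENCODE alone. Snord33 sits in an intron of Rpl13a, which encodes a ribosomal protein, Gm24148 in Ncl, which encodes the nucleolar protein nucleolin, Snora34 in Kansl2 and Snora47 in Zbed3. Parts of Rpl13a and Ncl transcripts that keep the intron also cover miR-5121 and the end of miR-3535.

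The precursor listed for miR-1983 is shown because it holds a whole tRNA gene. It is Mir1983 of RefSeq (chr13:21896918-21897049, minus strand), with the name in capitals.
Mir1983: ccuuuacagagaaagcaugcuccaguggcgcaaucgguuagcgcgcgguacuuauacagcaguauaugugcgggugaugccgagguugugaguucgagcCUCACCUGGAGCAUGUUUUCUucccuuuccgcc
The tRNA gene n-TItat14 covers bases 19 to 112 of it, and the name covers bases 100 to 120. The name is thus the last 13 bases of the tRNA gene (CUCACCUGGAGCA) and the next 8 bases (UGUUUUCU), which hold a run of 4 U. A run UUUU stands in miR-1983 only among the 8 names, and in 5.39% of the other names with a sequence. Of the 430 tRNA genes that RefSeq lists, this one is the only one a name of the table touches.

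The remaining 5 names had no snoRNA, tRNA or other such gene of RefSeq or GENCODE at their position. Near matches of their sequences to such RNAs encoded elsewhere were not searched for. MiR-5114 (chr19:44303171-44303192, plus strand) lies in the coding part of the last exon of Scd2, an enzyme of fatty acid desaturation, on its strand. MiR-5126 (chr1:84695890-84695911, plus strand) lies antisense to the 5′ UTR in the first exon of Dner, a neuronal membrane protein. MiR-6236 (chr9:110281353-110281371, plus strand) lies within the RefSeq long noncoding RNA Gm39429. MiR-6240 (chr5:114851973-114851998, plus strand) and miR-5099 (chr12:36816250-36816269, plus strand) lie in no gene other than their own miRNA entry. The hairpin of miR-5099 is shown because this name had the highest count of the 10 in Control replicate 1, with its table position in capitals.
Mir5099: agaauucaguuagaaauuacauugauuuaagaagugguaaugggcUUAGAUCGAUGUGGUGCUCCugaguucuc
The RefSeq hairpins of 8 names were folded with RNAfold. In energy per base, 6 of the 8 were less stable than the median of the 1005 mouse hairpins that were folded. These hairpins held 1601 of the 1890 other names, so the shares below refer to an incomplete set. Mir6240 was among the least stable, with 1.39% of hairpins less stable than it, and the Gm24148 entry of miR-3535 had 4.78% below it. Mir5114 and Mir5126 lay above that median in stability, with 79.0% and 96.7% of hairpins less stable.

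Depth was 673916 to 1006861 miRNA counts per Control library and 1858354 to 2809758 per GFP-AGO2 library. Values below are CPM scaled with edgeR's TMM factors, log2 fold changes are GFP-AGO2 over Control with the standard error (SE) of edgeR's fit, and all 10 names passed the filter on low counts. Neuronal markers were present in every library, at 1.32% to 1.90% of counts over 7 names. The 13 names of the miR-200 family and miR-183 cluster were listed here as epithelial, and their cell source in these libraries was not tested. They took 23.9% and 23.4% of the Control counts, against 2.61% and 5.10% in replicates 1 and 3 of GFP-AGO2. All 12 tested were called lower (edgeR's quasi-likelihood test, adjusted p under 0.05). The 7 neuronal names were all tested, and 2 were called higher and 1 lower. The 13 vessel, blood and immune names took 0.489% and 0.357% of the Control counts, against 0.0359% and 0.169% in GFP-AGO2. Among them 5 were tested, of which 3 were called lower and 0 higher. Of these 13, 4 were at 0 in all libraries (miR-126a-3p, miR-126a-5p, miR-486-5p and miR-142-3p), as were all 3 oligodendrocyte names, and these 7 names all overlap another name of the annotation. The part of these shifts in the values of the 10 names was not tested. In immunoprecipitates from tissue, fewer cells of a type, less RNA per cell and a difference in what was precipitated cannot be told apart.

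The tRNA name miR-1983 had counts of 34 and 32 in the Control libraries (replicate 1, then replicate 3, here and below) and of 1329 and 809 in the GFP-AGO2 libraries. Scaled to CPM these were 35.3 and 52.8 against 447 and 397. The GFP-AGO2 libraries lay close together and far above both Control libraries. The means were 44.1 ± 12.4 and 422 ± 35.6 CPM (SD, n = 2 each), a log2 fold change of 3.29 (SE 0.25), or 9.76-fold. It was the 3rd highest log2 fold change of the 457 names tested. Without each library in turn it stayed between 3.05 and 3.54. As a share of all miRNA counts, with exact intervals for counting error only, the unscaled rate was 33.8 CPM in Control replicate 1 (95% interval 23.4 to 47.2) and 473 in GFP-AGO2 replicate 1 (448 to 499).

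**Figure D1:**
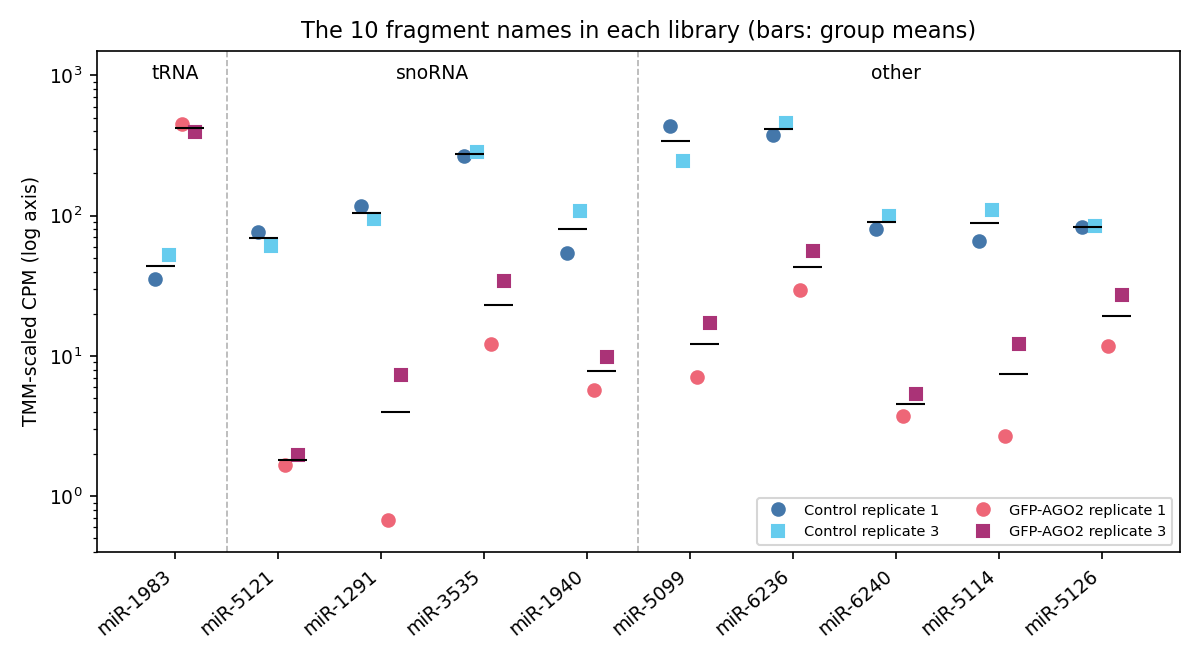
Each point is the TMM-scaled CPM (log axis) of one of the 10 names in 1 library, Control in blue and GFP-AGO2 in red, and the black bars are group means (n = 2). The GFP-AGO2 points of miR-1983, at 447 and 397 CPM, lie above its Control points, and those of the other 9 names lie below.

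Among the snoRNA names, miR-5121 at the 5′ end of Snord33 had counts of 74 and 37 in Control but 5 and 4 in GFP-AGO2, although the GFP-AGO2 libraries were deeper. These are 76.9 and 61.1 CPM against 1.68 and 1.96 CPM. Its log2 fold change of -5.20 (SE 0.42) was the 3rd lowest of all tested names. The libraries of each group lay close together, and without each library in turn the value was -5.40 to -4.97.

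MiR-1291, at the 5′ end of Snora34, stood at 116 and 94.1 CPM in Control, against 0.673 and 7.36 CPM in GFP-AGO2. The Control libraries were alike and the GFP-AGO2 libraries were not. The lower of them, replicate 1, held 2 counts, an unscaled rate of 0.712 CPM (95% interval 0.0862 to 2.57), and replicate 3 held 15. The log2 fold change was -4.81 (SE 0.87), the widest error among the 10 names. Leaving out GFP-AGO2 replicate 3 gave -7.13, and leaving out GFP-AGO2 replicate 1 gave -3.83.

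MiR-3535, on Gm24148, was the snoRNA name with the most counts, with 256 and 171 in Control, against 36 and 70 in GFP-AGO2. In CPM the Control libraries had 266 and 282, and the GFP-AGO2 libraries 12.1 and 34.3. The log2 fold change was -3.59 (SE 0.50). Leaving out GFP-AGO2 replicate 1 gave -2.99, and leaving out replicate 3 gave -4.49. MiR-1940, on Snora47, stood at 54.1 and 107 CPM in Control, against 5.72 and 9.81 CPM in GFP-AGO2, with a log2 fold change of -3.37 (SE 0.52). Its Control libraries differed 1.99-fold and its GFP-AGO2 libraries 1.72-fold, and the groups did not overlap.

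Summed, the 4 snoRNA names took 0.0491% and 0.0490% of all Control counts, against 0.00214% and 0.00587% in GFP-AGO2. The Control libraries gave almost the same share, while GFP-AGO2 replicate 3 had more than replicate 1. With all 10 names the share was 0.148% ± 0.00616 in Control, against 0.0588% ± 0.00504 in GFP-AGO2 (SD, n = 2 each). Without miR-1983 it was 0.144% ± 0.00713 and 0.0134% ± 0.00771, so most of what remained in GFP-AGO2 was this tRNA name.

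**Figure D2:**
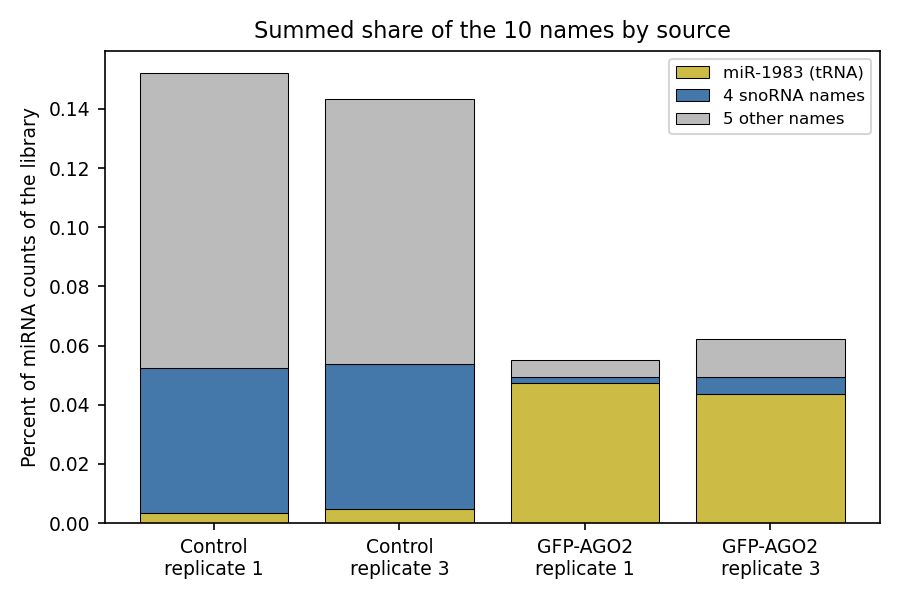
Bars give the percent of each library's miRNA counts that fell on the 10 names, split into miR-1983, the 4 snoRNA names and the 5 other names. The 4 snoRNA names make 0.0491% and 0.0490% in Control, against 0.00214% and 0.00587% in GFP-AGO2, where miR-1983 takes up most of the bar.

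Of the 5 names on neither class, miR-5099 stood at 436 and 246 CPM in Control, against 7.07 and 17.2 CPM in GFP-AGO2. Its log2 fold change was -4.86 (SE 0.52), the 4th lowest of the names tested, and leaving out 1 library gave -5.58 (GFP-AGO2 replicate 3 left out) to -4.31 (GFP-AGO2 replicate 1 left out). Its libraries differed 1.77-fold within Control and 2.43-fold within GFP-AGO2, less than the gap between the groups. MiR-6236 in Gm39429 stood at 377 and 457 CPM in Control, against 29.6 and 56.4 CPM for GFP-AGO2 (fitted log2 fold change -3.29, SE 0.35). For miR-6240 Control gave 80.0 and 99.0 CPM and GFP-AGO2 3.70 and 5.40 CPM, the latter from 11 counts in each library (log2 fold change -4.29, SE 0.38). Leaving out 1 library gave -3.81 to -2.88 for miR-6236 and -4.56 to -4.02 for miR-6240.

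The remaining 2 names lie on exons of protein-coding genes. MiR-5114, within the Scd2 coding exon, stood at 66.5 and 111 CPM in Control, against 2.69 and 12.3 CPM in GFP-AGO2. Its GFP-AGO2 libraries differed 4.56-fold, the widest gap of the 10 names after the 10.9-fold of miR-1291. Its log2 fold change was -3.60 (SE 0.74), and leaving out GFP-AGO2 replicate 3 or 1 gave -4.98 or -2.83. MiR-5126, antisense to Dner, had the smallest difference of the 10, with 83.2 and 84.2 CPM in Control, against 11.8 and 27.0 CPM in GFP-AGO2. Its log2 fold change of -2.12 (SE 0.46) became -2.82 or -1.63 when GFP-AGO2 replicate 3 or 1 was left out. Its raw counts were 80 and 51 in Control, against 35 and 55 in GFP-AGO2, so the raw counts of the groups overlapped. MiR-5114 lies on the strand of Scd2, so strand cannot tell its reads from those of Scd2 transcripts. For miR-5126 the strands differ, but the counting command sets no strand, so reads of Dner transcripts cannot be told apart from its own.

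The 9 lower names spanned log2 fold changes of -5.20 to -2.12 with a median of -3.60, where the median over all tested names was -0.01. GFP-AGO2 had 2.78 times the depth on average, and in 8 of the 10 names the raw counts too were lower in both GFP-AGO2 libraries. The share of all names with such raw counts was not computed. Nothing is read from this count, since the 10 names were chosen on this difference. Between the GFP-AGO2 libraries, replicate 3 was above replicate 1 in 9 of the 9 lower names, by 1.17-fold to 10.9-fold (median 2.29-fold). Replicate 3 was also above replicate 1 in 257 of the 447 other tested names (57.5%), in 46 of the 49 others with a log2 fold change under -2, and in the epithelial and vessel sums above. Within Control, replicate 3 was above replicate 1 in 6 of the 9.

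**Figure D3:**
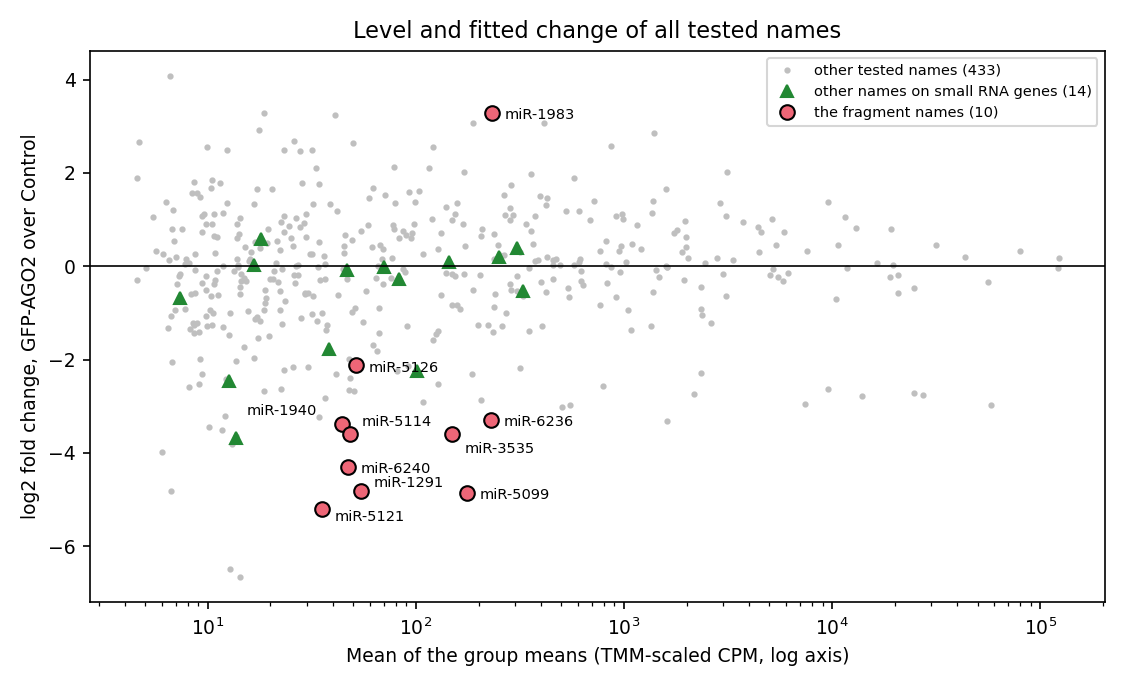
Each point is a tested name, placed by the mean of its group means in TMM-scaled CPM (log axis) and its log2 fold change. The 10 names followed here are in red, and the 14 other names on small RNA genes are green triangles. The words fragment names in the figure are a label for the 10, whose origin as fragments was not tested. MiR-1983 lies at 3.29 and the other 9 names at -5.20 to -2.12, which their choice fixed, and the triangles span -3.68 to 0.58 with a median of -0.18.

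A comparison list was set by position alone. It holds the other names that overlap, by at least 1 base, a snoRNA, scaRNA, tRNA, rRNA or other non-miRNA small RNA gene of RefSeq or GENCODE. There were 23, of which 14 were tested with edgeR's quasi-likelihood test, with p-values adjusted by Benjamini-Hochberg over the 457 names and a call at an adjusted p under 0.05. Of the 14, 2 were called lower and none higher, against 17.1% and 17.3% of all tested names, and their median log2 fold change was -0.18. Together all 23 names took 0.171% and 0.120% of the Control counts, against 0.132% and 0.155% in GFP-AGO2, so the groups overlapped. At an unadjusted p under 0.05 edgeR gave 4 of the 14 lower and 0 higher. DESeq2, at an adjusted p under 0.05, called 0 higher. Without any filter 1 was called higher, and with that setting, DESeq2, the replicate block or without GFP-AGO2 replicate 3 the lower calls were 4. Without Control replicate 1 there was 1. None was called with RefSeq alone as the source of the list, where 6 were tested and edgeR gave 0 at an unadjusted p under 0.05.

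By the naming rule, the 5 of these with the highest mean CPM were miR-1843a-5p and miR-1843a-3p on Scarna3b, miR-1843b-3p on Scarna3a, miR-1839-5p on the scaRNA entry Mir1839 and miR-3068-3p on the snoRNA entry Mir3068. MiR-1843a-5p averaged 384 ± 114 CPM in Control against 268 ± 20.9 CPM in GFP-AGO2 (SD, n = 2), and the fitted log2 difference was -0.53 (SE 0.24, edgeR adjusted p = 0.151). MiR-1839-5p stood at 283 and 246 CPM in Control, against GFP-AGO2 values of 336 and 363 CPM (log2 fold change 0.40, SE 0.16, edgeR adjusted p = 0.119). Its Control level was like that of miR-3535. MiR-1843a-3p and miR-1843b-3p had log2 fold changes of 0.10 (SE 0.27) and 0.21 (SE 0.18), with edgeR adjusted p-values of 0.832 and 0.421. MiR-3068-3p fell by 2.24 on the log2 scale (SE 0.51, edgeR adjusted p = 0.0235), with 245 and 87.5 CPM in Control, against 33.3 and 38.3 CPM in GFP-AGO2, so that its Control libraries lay far apart. The other name called lower was miR-6516-3p, with 20 and 18 counts in Control and 3 and 6 with GFP-AGO2 (fitted log2 difference -3.68, SE 0.72, edgeR adjusted p = 0.0140).

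These names lie elsewhere on their hosts. Of the 21 on GENCODE snoRNA or scaRNA genes, 11 end within 5 bases of the host's 3′ end and 10 end 40 to 48 bases before it. Only miR-677-5p starts in the first 10 bases, at base 3 of the short snoRNA entry Mir677, and the others start at base 47 or later. The 4 snoRNA names among the 10 start at bases 0 to 3, where 0 is the base before the host. They were chosen for a large difference and the list was not, so their log2 fold changes are not compared by position. The tested names of the list at the 3′ end ranged from -3.68 for miR-6516-3p to 0.21 for miR-1843b-3p. MiR-677-5p and its partner miR-677-3p had log2 fold changes of -1.77 (SE 0.55) and -2.46 (SE 0.75), with edgeR adjusted p-values of 0.0576 and 0.0567. These were lower values than those of the other tested names of the list except miR-6516-3p and, for miR-677-5p, miR-3068-3p; the position was looked at after the values were known.

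**Figure D4:**
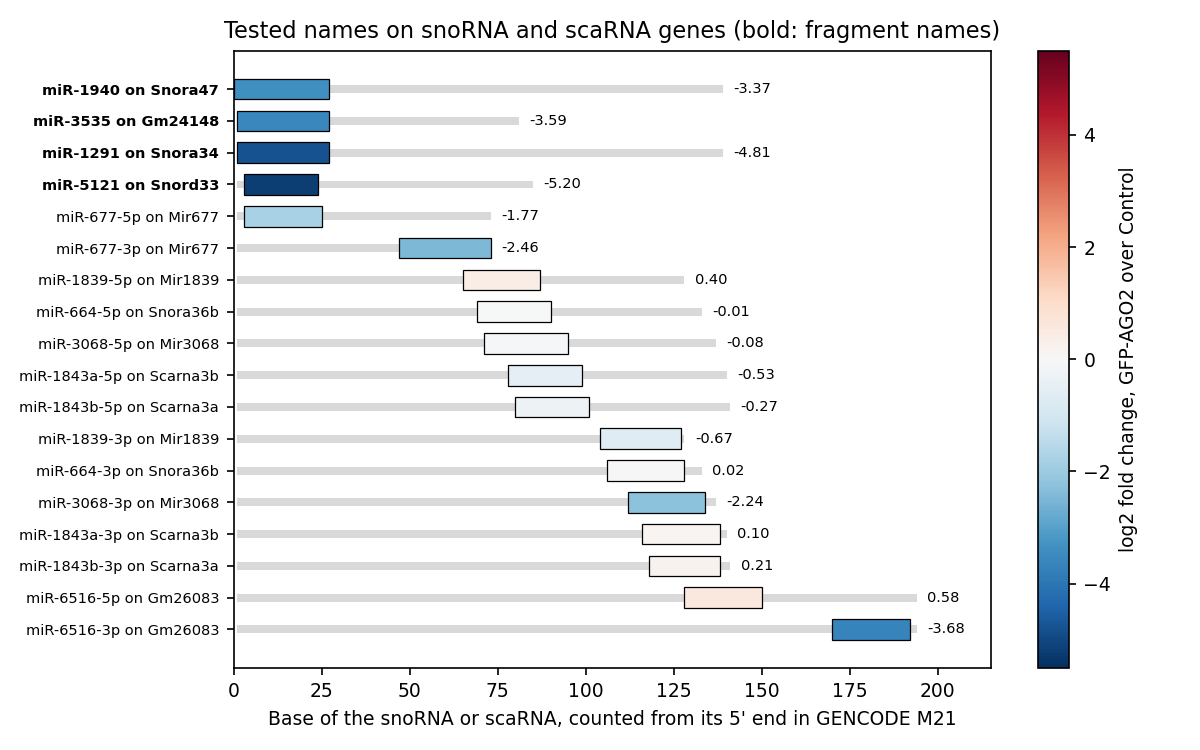
Grey bars are snoRNA or scaRNA genes drawn from their 5′ end in bases, and boxes are the tested names on them, coloured and labelled by log2 fold change of GFP-AGO2 over Control. The 4 fragment names (bold), chosen for a large difference, sit at the 5′ end with -5.20 to -3.37. All other names except miR-677-5p start at base 47 or later, with -3.68 to 0.58.

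The form of the name gave another comparison list. Of the 1890 other names, 308 (16.3%) have no arm suffix, and 24 of these were tested. Of the 24, 7 were called lower and none higher, with a median log2 fold change of -0.78, against 17.1% and 17.3% of all tested names. At an unadjusted p under 0.05 edgeR gave 10 lower and 0 higher. DESeq2, at an adjusted p under 0.05, called 0 higher. The lower calls were 4 with the filter at 50 counts and 6 to 9 without each library in turn. The 5 with the highest mean CPM were miR-484, let-7k, miR-6538, miR-8114 and miR-378c. MiR-484 averaged 1001 ± 146 CPM in Control against 919 ± 0.438 CPM in GFP-AGO2, and let-7k 805 ± 47.6 against 829 ± 56.4 CPM (SD, n = 2), with log2 fold changes of -0.13 (SE 0.16) and 0.04 (SE 0.15). MiR-6538 fell from 976 ± 60.2 to 125 ± 67.4 CPM (-2.97, SE 0.40, edgeR adjusted p = 0.00625) and miR-378c from 181 ± 9.59 to 61.2 ± 14.1 CPM (-1.57, SE 0.24, edgeR adjusted p = 0.00778). MiR-8114 had -1.25 (SE 0.48, edgeR adjusted p = 0.0988).

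For 3 of the 10 names, those with the highest mean CPM, the tested names most like them were found by the distance between log2 CPM profiles over the 4 libraries, each centred on its own mean. MiR-1983 was nearest to miR-410-3p (distance 0.46, log2 fold change 3.07), a neuronal miRNA of the imprinted Dlk1-Dio3 cluster, and to miR-676-5p (0.69, log2 fold change 3.06). MiR-6236 was nearest to miR-96-5p of the miR-183 cluster (0.09, log2 fold change -3.31) and to miR-6538 (0.33). MiR-5099 had no close neighbour, with miR-129b-3p at 1.00 and miR-1906 at 1.01. The distances rest on only 4 libraries in 2 groups and are a description. Since the 10 names were chosen on the group difference, names with a similar fold change tend to come out nearest. No shared source or function is read from them.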

How the data were processed

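The deposited table holds raw counts per mature miRNA name, which per the file headers come from primary alignments counted by featureCounts v1.4.6-p1 against a miRBase annotation for mm10. The command names no strand and no minimum overlap, so a count need not be a read with exactly the printed sequence. Cutadapt and STAR are named in the submitters' processing notes. Columns were tied to samples by title. Replicates of a group differed by more than sampling noise (chi-square 4564 on 383 degrees of freedom in Control, 47711 on 475 in GFP-AGO2).

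Counts were fitted over the whole table with edgeR 4.0.16 in R 4.3.3 (quasi-likelihood F test, two-sided, TMM factors, filterByExpr at a minimum count of 10, groups only), which tested 457 names. The fit was also run on simulated counts, with the same spread between replicates set for every name and library. That spread was not taken from these libraries, so the run does not show how the fit behaves at theirs. Host genes came from RefSeq (GRCm38.p6) and GENCODE M21, sequences from RefSeq (1603 of 1900 names matched), and hairpins were folded with RNAfold 2.7.2. Intervals are exact Clopper-Pearson 95% intervals. PCR copies are counted as reads, so the intervals cover counting error only.

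The members and lists were chosen with earlier results of these data known. All 10 names were named. Of each comparison list the 5 tested names with the highest mean CPM were named, and for the 3 of the 10 names with the highest mean CPM the 2 nearest names. Further names were chosen after their values were seen: miR-6516-3p and the miR-677 pair. Alternatives were DESeq2's size factors, total counts alone, other filters, the DESeq2 1.42.0 test, a replicate block, leaving out each library or names with several positions, and the list from RefSeq alone, added after the data were seen.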

Additional observations from a re-analysis of the deposited data

How the results depend on the processing

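All 10 names kept their direction under the 11 alternatives, which their choice for a large difference in these same libraries made likely. Their size moved with the GFP-AGO2 library left out: miR-1291 had -7.13 without replicate 3 and -3.83 without replicate 1, and miR-5114 -4.98 and -2.83. Total counts alone moved the median of all names by 0.21 (log2), and miR-5126, with the smallest difference, then had -1.90. Over all names 79 were called higher and 78 lower. Total counts alone gave 100 and 66, and no filter 118 and 84, so that the balance of calls used beside the lists depends on both. Leaving out 1 library gave 47 to 94 higher and 43 to 106 lower, with the fewest calls without Control replicate 1 (47 and 43); without Control replicate 3 they were 49 and 53. Of the other names on small RNA genes, 2 were called lower and none higher, and leaving out 1 library gave 1 (Control replicate 1) to 4 (GFP-AGO2 replicate 3) lower. The lower calls were 4 with no filter (1 higher), 4 with DESeq2 and 4 with the replicate block, and 0 with RefSeq alone. Of the other names without an arm suffix, 7 were called lower, and 4 with the filter at 50 counts. Replicate numbers 1 and 3 occur in both groups, but nothing says that they pair libraries. The deviations of same-numbered libraries had a correlation of -0.05 over 457 names, and the replicate block gave 79 higher and 85 lower calls over all names. With the epithelial names left out of the denominator, the summed share of the 10 names was 0.193% for Control against 0.0612% for GFP-AGO2. Depth limits the lowest values: miR-1291 had 2 counts and miR-5121 5 and 4 in GFP-AGO2 libraries.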
